A study of Homo sapiens with 6 samples.

Results

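The genes described here encode histone-modifying enzymes, and they were chosen by a rule on gene symbols. The rule took protein-coding genes of the KDM, KMT, SETD, SETDB, HDAC, SIRT, KAT, PRMT, SUV39H, EHMT, EZH and NSD families and added EED, SUZ12, DOT1L, EP300 and CREBBP. It found 87 genes among the 62656 genes of the deposited tables, of which 19831 are protein-coding. The libraries come from RNA of OVCAR5, a long-established human line that serves to study ovarian cancer in culture. Cells were exposed for 3 days either to 100 nM NTX301, which the series' title calls a DNA hypomethylating agent, or to the solvent dimethyl sulfoxide (DMSO), with 3 libraries each. The comparison asks how transcript levels of these enzymes differed between the drug and its solvent. Separate cultures are not stated for the 3 libraries of a treatment, so the p-values reflect only how far these libraries differ among themselves, which may be technical.

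Histone proteins carry methyl and acetyl groups on lysines and methyl groups on arginines of their tails. Methyltransferases and acetyltransferases add these groups, and demethylases and deacetylases take them off. Methylation of lysine 4 of histone H3 (H3K4) marks active promoters and enhancers, whereas methylation of H3K9 and H3K27 is found in silenced chromatin. That of H3K9 works there alongside DNA methylation. Several of the enzymes are drug targets in cancer. The symbols also cover enzymes that act mainly on other proteins, such as HDAC6 and SIRT2, which remove acetyl groups from tubulin, SETD3, which methylates actin, and SIRT3, SIRT4 and SIRT5, which work in mitochondria.

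With counts scaled by trimmed means (TMM), more histone-modifying enzymes were lower than higher with NTX301, and most differences were small; on log2(TPM + 1), where TPM is relative transcript abundance per length, 31 were higher and 28 lower. Of the 87 genes, 83 had enough counts to be tested. The other 4, PRMT8, KDM4E, KDM4F and KDM5D, had 0 counts in every library. A gene with 0 counts in a group may still hold up to 3 there, or 0.0408 per 1e6 counts with DMSO and 0.0424 with NTX301, a limit for counting error only. Among the 83, 22 were higher and 46 lower with NTX301 at an adjusted p of 0.05 in edgeR, and 15 were not called. Over all 19029 genes tested, 35.4% were called higher and 35.1% lower. The largest rise was that of the deacetylase HDAC9, at 4.53-fold, and the largest fall that of the deacetylase HDAC5, at 3.00-fold. Changes of at least 2-fold were seen for 3 members that rose (HDAC9, SUV39H2 and KDM4D) and 7 that fell (HDAC5, DOT1L, NSD1, HDAC10, EZH1, KMT2C and SIRT2). Over all tested genes 13.4% were called higher by at least 2-fold and 8.55% lower by at least 2-fold. The log2 fold change lay within 0.5 of 0 for 49 of the 83.

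The median log2 fold change of the 83 members was -0.23, against 0.00 for all tested genes. These values are relative to the typical gene, because of the TMM scaling. With library totals alone the median of all tested genes moved up by 0.21 on the log2 scale, and the members then split into 31 higher and 34 lower. The share of member calls that were higher was 32.35% with TMM, 47.69% without a scaling factor and 52.54% on log2(TPM + 1). For all tested genes those shares were 50.25%, 65.01% and 66.71%. Called members with a log2 fold change between -0.31 and 0 lost their call or changed sign without the scaling factor. DMSO and NTX301 ranges were apart in 70 of the 83 members, and in 73.7% of all tested genes. RNA came from bulk cultures, so fewer cells that express a gene and less RNA per cell cannot be told apart.

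**Figure D1:**
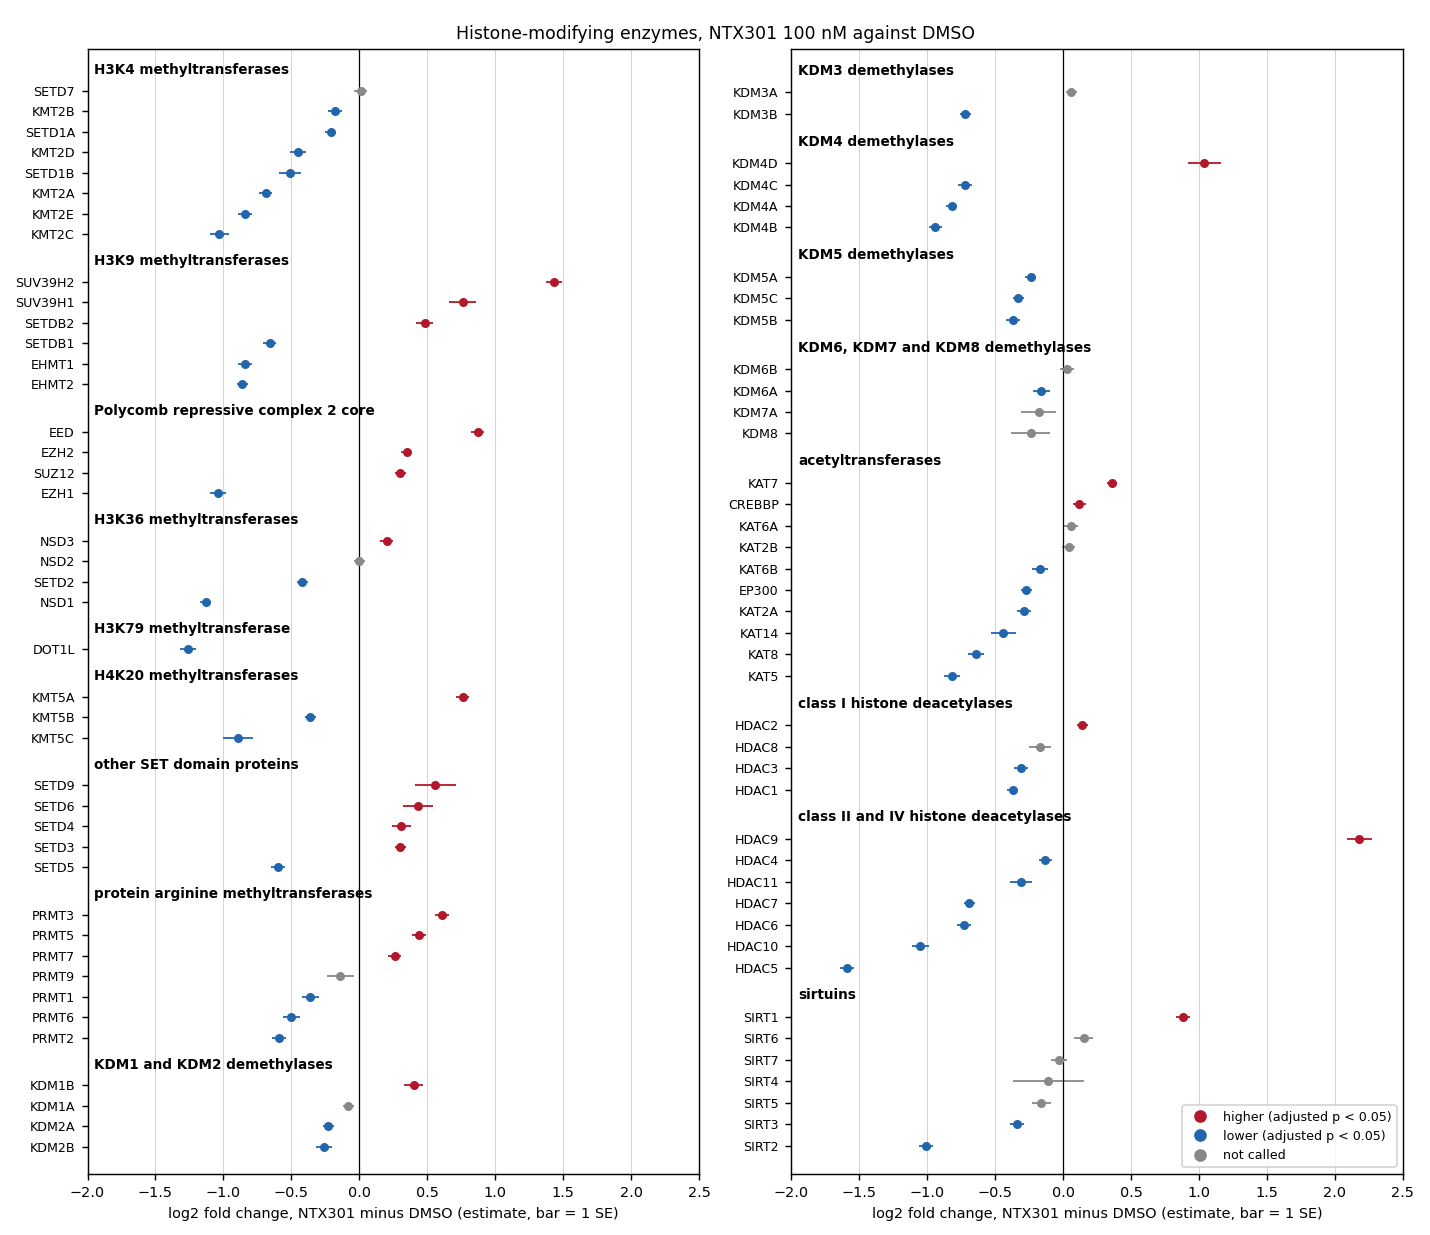
Log2 fold change (NTX301 minus DMSO, edgeR) of the 83 tested histone-modifying enzymes, grouped by role, with bars for the standard error. HDAC9 lies farthest to the right at 2.18 and HDAC5 farthest to the left at -1.59, while 49 of the 83 lie within 0.5 of 0.

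Total estimated counts ranged from 22131175 to 25743732 per DMSO library and from 23194160 to 23842859 per NTX301 library. Levels below are in CPM, reads per 1e6 of the scaled library after TMM scaling, and each log2 fold change carries its standard error. Counts of called members by role below stand beside 35.4% of all tested genes called higher and 35.1% lower with TMM. Of all 19029, 8793 were higher and 4732 lower without a scaling factor, and 8652 and 4318 on log2(TPM + 1). The epithelial identity of the cells was checked on 8 markers. None of the 8 was at 0, 6 fell and 1 rose, and their summed level was 4381 to 4556 TPM with DMSO and 2461 to 2541 TPM with NTX301. Of 8 leukocyte markers 3 were tested and 2 rose. MS4A1 had 0 counts in every library, PTPRC had 0 with DMSO and 7 in all with NTX301, and the summed level of the list, 42.8 to 49.4 TPM with DMSO and 79.5 to 87.3 TPM with NTX301, came almost wholly from CD68 and CD14. Of 5 endothelial markers 3 were tested and 2 rose, with a summed level of 1.47 to 1.64 TPM with DMSO and 2.30 to 2.46 TPM with NTX301. Of 6 fibroblast markers 4 were tested, 3 rose and 1 fell, with a summed level of 1.43 to 1.88 TPM and 5.35 to 5.78 TPM. A list of 22 proliferation genes held 20 that rose and 1 that fell, with a median log2 fold change of 1.28, and its summed level was 1115 to 1202 TPM with DMSO and 2699 to 2835 TPM with NTX301. The part of these shifts in the results on the enzymes was not tested.

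Promoter sequence was examined because the agent is labelled as lowering DNA methylation, which in human cells lies mostly on CpG dinucleotides. RefSeq (GRCh38.p14) promoter windows of 300 bases, 250 before and 50 after the listed start, were matched by symbol for 79 of the 87 genes, the others being DOT1L, HDAC5, KAT6A, KAT8, KDM4E, NSD3, SETD1B and SIRT7. The members' windows held a median of 29 CpG, against 22 over 15843 protein-coding promoters, and 89.9% of them had at least 10 CpG, against 73.0%. The median was 32 for members that rose, 29 for those that fell and 29 for those not called. EZH2 rose and EZH1 fell, while SUV39H1 and SUV39H2 both rose, to different extents. The following 150 bases before the listed start are shown to set these paralogs beside the member with the largest rise. They are written 5′ to 3′ on the gene's strand, with every CpG in capitals. HDAC9 is at chr7:18495599-18495748 (plus strand), SUV39H1 at chrX:48695404-48695553 (plus), SUV39H2 at chr10:14878716-14878865 (plus), EZH2 at chr7:148884292-148884441 (minus) and EZH1 at chr17:42745041-42745190 (minus).
HDAC9: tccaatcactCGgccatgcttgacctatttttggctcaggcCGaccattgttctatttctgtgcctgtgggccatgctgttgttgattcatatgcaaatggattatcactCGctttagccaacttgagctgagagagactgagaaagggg
SUV39H1: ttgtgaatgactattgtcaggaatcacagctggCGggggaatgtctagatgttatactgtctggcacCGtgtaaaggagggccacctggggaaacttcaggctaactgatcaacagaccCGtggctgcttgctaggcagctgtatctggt
SUV39H2: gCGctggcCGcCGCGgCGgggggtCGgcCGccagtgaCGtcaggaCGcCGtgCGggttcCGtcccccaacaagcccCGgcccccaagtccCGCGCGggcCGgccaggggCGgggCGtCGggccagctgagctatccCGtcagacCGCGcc
EZH2: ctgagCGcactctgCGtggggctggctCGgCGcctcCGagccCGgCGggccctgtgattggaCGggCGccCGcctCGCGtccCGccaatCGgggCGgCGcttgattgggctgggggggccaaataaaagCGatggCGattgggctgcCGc
EZH1: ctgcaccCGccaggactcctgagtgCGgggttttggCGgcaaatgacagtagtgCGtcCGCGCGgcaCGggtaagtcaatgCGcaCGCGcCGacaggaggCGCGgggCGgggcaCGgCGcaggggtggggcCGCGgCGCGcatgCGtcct

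The HDAC9 and SUV39H1 stretches held 3 CpG each, while those of SUV39H2, EZH2 and EZH1 held 23, 19 and 22. The listed HDAC9 start lies inside the gene as GENCODE 29 places it (chr7:18086949-19002416), so other starts of that gene are not covered by this window. The KAT14 and HDAC4 windows also lie inside their genes, and so do those of SETD7, HDAC2, KDM4C, HDAC7 and SETD4, among others. The windows of NSD1, SIRT4 and KDM6B, among others, lie ahead of the GENCODE 29 starts of their genes. The CpG counts of all such members carry the same limit. Members with few CpG in the whole 300-base window were found in every direction of change. HDAC9 held 5 and rose, NSD1 held 7 and fell, KAT14 held 1 and fell, and HDAC8 held 9 and was not called. An E2F site, searched as TTTGGCGC or TTTCGCGC on both strands, was present only in the EZH2 window, just after the listed start. That is 1.27% of the members' windows, against 1.67% of all protein-coding promoters. The cell cycle element searched as TTTGAA on both strands was present in 13.9% of the members' windows and 12.1% of all. These matches are descriptions of letters and show no binding.

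**Figure D2:**
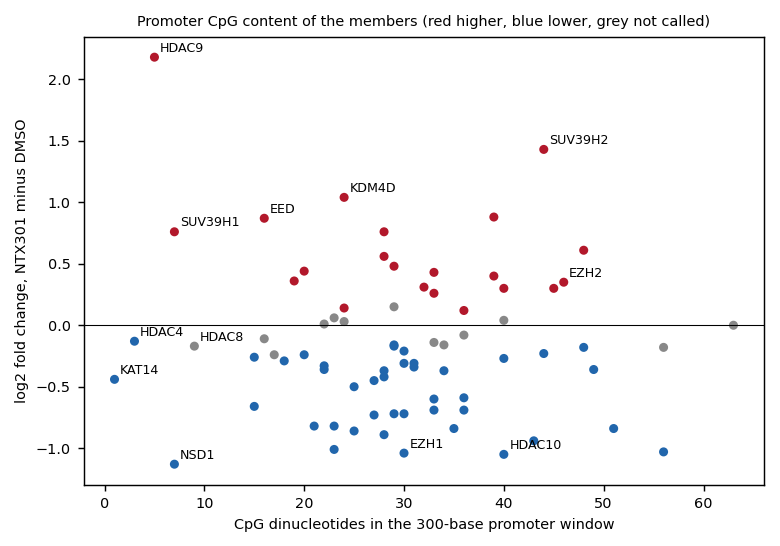
CpG dinucleotides in the 300-base RefSeq promoter window (horizontal axis) against the log2 fold change, NTX301 minus DMSO (vertical axis), of the tested members with a matched window. HDAC9 stands apart at 5 CpG and a log2 fold change of 2.18, and members with many CpG lie on both sides of 0. The windows of some members, HDAC9 among them, lie away from the annotated start of the gene.

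Methyltransferases of H3K4 were mostly lower with TMM scaling. Of 8 members, 7 fell, against 5 without a scaling factor and 3 on log2(TPM + 1), with 1 higher in each of those alternatives, and SETD7, which adds a single methyl group to H3K4, was not called at a log2 fold change of 0.01 ± 0.05. KMT2C, a large enzyme that places a single methyl group at enhancers, stood at 68.7, 70.3 and 78.8 CPM with DMSO and at 33.9, 33.5 and 39.2 CPM with NTX301. The groups were far apart, and KMT2C fell 2.04-fold (log2 fold change -1.03 ± 0.07, adjusted p = 8.4e-08 by edgeR). KMT2E, a family member with little known enzymatic activity, and KMT2A followed with log2 fold changes of -0.84 and -0.69, and SETD1B and KMT2D, the paralog of KMT2C, with -0.51 and -0.45, calls that were lost on log2(TPM + 1). SETD1A, at -0.21, was no longer called without a scaling factor or on log2(TPM + 1). KMT2B, at -0.18, changed sign to 0.03 in both. KMT2C shares stretches of sequence with pseudogene copies, so the division of its reads is uncertain.

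Of 6 H3K9 methyltransferases, 3 were higher and 3 lower, where 35.4% of all tested genes were called higher and 35.1% lower. SUV39H1, SUV39H2 and SETDB2 rose, and EHMT1, EHMT2 and SETDB1 fell. SUV39H2, which trimethylates H3K9 in heterochromatin, stood at 11.3, 11.7 and 10.4 CPM with DMSO and at 29.8, 29.2 and 31.2 CPM with NTX301. This rise was 2.69-fold (log2 fold change 1.43 ± 0.06, adjusted p = 2.8e-09 by edgeR), with all 3 treated libraries far above the controls. Its paralog SUV39H1 rose 1.69-fold, from 11.3 ± 1.64 to 19.2 ± 1.23 CPM (mean ± SD, n = 3). EHMT2 and EHMT1 form a heterodimer that places methyl groups on H3K9 in euchromatin. EHMT2 stood at 69.2, 72.7 and 73.4 CPM with DMSO and at 40.0, 39.5 and 38.8 CPM with NTX301. It fell 1.82-fold (log2 fold change -0.86 ± 0.04, adjusted p = 6.5e-09 by edgeR), and EHMT1 fell 1.80-fold. SETDB1, which silences endogenous retroviral sequences, fell by 0.66 on the log2 scale, while the less studied SETDB2 rose by 0.48.

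Polycomb repressive complex 2 (PRC2) methylates H3K27, and its core is made of EED, SUZ12 and either EZH2 or EZH1 as the catalytic subunit. All but EZH1 rose. EED, which binds the methylated product and stimulates the enzyme, stood at 22.6, 20.9 and 22.7 CPM with DMSO and at 41.7, 38.9 and 40.3 CPM with NTX301. It rose 1.83-fold (log2 fold change 0.87 ± 0.05, adjusted p = 3.9e-08 by edgeR). EZH2, the catalytic subunit of dividing cells, stood at 35.6, 35.7 and 35.5 CPM with DMSO and at 44.1, 46.7 and 45.6 CPM with NTX301. The DMSO libraries were nearly identical, every treated library lay above them, and the rise was 1.28-fold (log2 fold change 0.35 ± 0.04, adjusted p = 2.1e-05 by edgeR). SUZ12, a scaffold subunit with a pseudogene copy, stood at 129.8, 133 and 144 CPM with DMSO and at 164, 166 and 170.2 CPM with NTX301, a rise of 1.23-fold.

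EZH1, the catalytic subunit that prevails in resting cells, went the other way. Its levels were 36.1, 37.5 and 37.2 CPM with DMSO and 17.8, 17.0 and 19.0 CPM with NTX301. EZH1 fell 2.06-fold (log2 fold change -1.04 ± 0.06, adjusted p = 1.1e-08 by edgeR), and the groups did not overlap. Of the PRC2 accessory subunits 8 of 9 were tested, and 5 rose and 3 fell, with a median log2 fold change of 0.14. PHF19, which recruits PRC2 to chromatin, and EPOP, a subunit found with elongin, rose by 1.05 and 0.93 on the log2 scale. JARID2, a cofactor of another PRC2 form, fell by 0.46. In Polycomb repressive complex 1, which ubiquitinates histone H2A, 7 of 20 genes rose and 6 fell, led by SCML2 at 1.74 and CBX6 at -0.78. These shares are near those of all tested genes, 35.4% higher and 35.1% lower.

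Enzymes of H3K36 and H3K79 were led by falls. NSD1 (ENSG00000165671.22, chr5:177133025-177300215), which dimethylates H3K36 and by that mark guides DNA methyltransferases, stood at 133, 138 and 139 CPM with DMSO and at 59.8, 62.0 and 65.7 CPM with NTX301. It fell 2.19-fold (log2 fold change -1.13 ± 0.04, adjusted p = 9.4e-10 by edgeR). SETD2, which trimethylates H3K36 behind RNA polymerase, fell by 0.42 on the log2 scale, and NSD2 was not called at 0.00 ± 0.04. NSD3 stood at 175, 168 and 173 CPM with DMSO and at 198, 186 and 208 CPM with NTX301, a rise of 1.15-fold (adjusted p = 0.0021 by edgeR). DOT1L (ENSG00000104885.19, chr19:2164149-2232578), the H3K79 methyltransferase, stood at 70.2, 71.6 and 80.6 CPM with DMSO and at 30.7, 29.9 and 32.0 CPM with NTX301. It fell 2.40-fold (log2 fold change -1.26 ± 0.06, adjusted p = 3.8e-09 by edgeR), so every treated library lay far below every control.

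The enzymes of H4K20 methylation, a mark of cell cycle and compact chromatin, showed opposed transcript changes between its steps. KMT5A, which adds the initial methyl group during mitosis, stood at 32.4, 32.3 and 30.6 CPM with DMSO and at 55.1, 54.4 and 52.2 CPM with NTX301. It rose 1.70-fold (log2 fold change 0.76 ± 0.05, adjusted p = 3.8e-08 by edgeR). KMT5C, which adds further methyl groups, stood at 9.48, 9.92 and 10.4 CPM with DMSO and at 6.21, 4.68 and 5.13 CPM with NTX301. It fell 1.86-fold (adjusted p = 2.1e-05 by edgeR), and its partner in that step, KMT5B, fell by 0.36 on the log2 scale, which turned to 0.04 on log2(TPM + 1).

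Of the other SET domain proteins, 4 of 5 rose. SETD5 was the exception, at 126, 121 and 129 CPM with DMSO and at 80.5, 79.4 and 87.3 CPM with NTX301. It fell 1.52-fold (log2 fold change -0.60 ± 0.05, adjusted p = 2.3e-07 by edgeR). SETD9, with the fewest counts of the 4, stood at 2.93, 3.96 and 2.94 CPM with DMSO and at 4.64, 5.43 and 4.43 CPM with NTX301. Its rise of 1.47-fold (adjusted p = 0.0065 by edgeR) rests on few counts. SETD6, SETD4 and the actin methyltransferase SETD3 rose by 0.43, 0.31 and 0.30 on the log2 scale.

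Of 7 arginine methyltransferases tested, 3 were higher and 3 lower, where 35.4% of all tested genes were called higher and 35.1% lower. PRMT3, which methylates a ribosomal protein, stood at 45.0, 41.9 and 40.7 CPM with DMSO and at 67.2, 63.5 and 64.2 CPM with NTX301. It rose 1.52-fold (log2 fold change 0.61 ± 0.05, adjusted p = 4.1e-07 by edgeR). PRMT5, the main enzyme of symmetric arginine dimethylation, rose by 0.44 on the log2 scale, and PRMT7 by 0.26. PRMT2 stood at 50.5, 52.9 and 49.9 CPM with DMSO and at 33.0, 34.5 and 34.5 CPM with NTX301, a fall of 0.59 on the log2 scale. PRMT6 and PRMT1 fell by 0.50 and 0.36. PRMT1, the main enzyme of asymmetric dimethylation, was the most abundant member on the length-normalised scale, at 209 ± 13.7 TPM with DMSO and 188 ± 3.73 TPM with NTX301 (SD, n = 3).

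**Figure D3:**
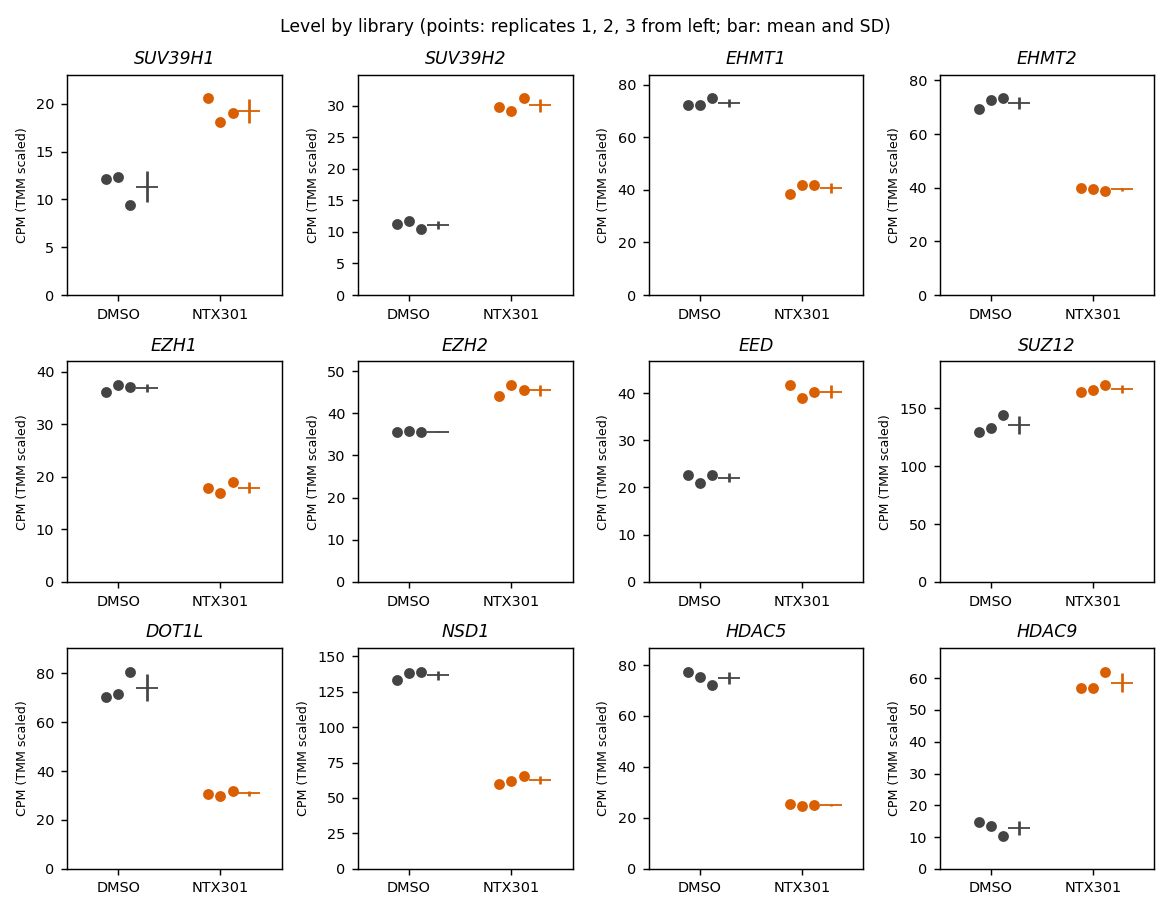
CPM (vertical axis, TMM scaled) in each of the 6 libraries for 12 members, with 1 point per library and crosses for the group mean and SD of 3 libraries. HDAC9 and SUV39H2 sit higher in all 3 NTX301 libraries, and HDAC5, DOT1L and EZH1 lower in all 3.

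Of 17 lysine demethylases tested, 10 fell and 2 rose with TMM scaling, with a median log2 fold change of -0.24. Over all tested genes 35.1% were called lower and 35.4% higher. Without a scaling factor 6 of the 17 fell and 5 rose, and on log2(TPM + 1) 4 fell and 5 rose. Over all 19029 tested genes the calls then were 4732 lower and 8793 higher, and 4318 lower and 8652 higher. The KDM4 enzymes, which take methyl groups off H3K9 and H3K36, gave the widest split. KDM4B stood at 44.7, 45.3 and 44.4 CPM with DMSO and at 23.9, 23.8 and 22.4 CPM with NTX301. It fell 1.92-fold (log2 fold change -0.94 ± 0.05, adjusted p = 7.9e-09 by edgeR), and KDM4A and KDM4C fell 1.76-fold and 1.65-fold. KDM4D, a shorter member of the family, stood at 3.36, 2.92 and 3.42 CPM with DMSO and at 6.85, 6.26 and 6.81 CPM with NTX301. It rose 2.06-fold (log2 fold change 1.04 ± 0.12, adjusted p = 8.3e-06 by edgeR) from a low level. The near copies KDM4E and KDM4F were given 0 counts in every library. Shared reads are divided by estimate, so reads of near copies could still be confused with those of KDM4D.

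KDM3B, an H3K9 demethylase, stood at 135, 132 and 132 CPM with DMSO and at 81.8, 77.1 and 83.1 CPM with NTX301. It fell 1.65-fold (adjusted p = 1.7e-08 by edgeR), whereas KDM3A was not called at a log2 fold change of 0.06 ± 0.04. KDM1B, which demethylates H3K4 in the female germ line ahead of imprinting, stood at 25.7, 25.5 and 25.0 CPM with DMSO and at 29.8, 35.0 and 35.4 CPM with NTX301. Its rise was 1.32-fold (adjusted p = 0.00024 by edgeR), with NTX301 library 1 nearest to the controls. KDM1A, the main enzyme of that family, was not called at -0.08 ± 0.04, and KDM2A and KDM2B, which bind unmethylated CpG, fell by 0.23 and 0.26, calls that were lost without a scaling factor and on log2(TPM + 1). KDM2B stood at 37.9, 38.5 and 34.9 CPM with DMSO and at 30.0, 30.4 and 32.5 CPM with NTX301.

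The H3K4 demethylases KDM5A, KDM5B and KDM5C fell by 0.24, 0.37 and 0.33 on the log2 scale, and none of those calls held on log2(TPM + 1). KDM5B stood at 66.2, 67.1 and 68.3 CPM with DMSO and at 49.3, 52.3 and 54.4 CPM with NTX301 (adjusted p = 1.8e-05 by edgeR). KDM6A and KDM6B take methyl groups off H3K27. KDM6A stood at 31.6, 32.7 and 29.8 CPM with DMSO and at 28.3, 26.8 and 29.4 CPM with NTX301. Its log2 fold change of -0.16 ± 0.06 (adjusted p = 0.026 by edgeR) became 0.05 without a scaling factor, and leaving out library 1 or 2 of either treatment gave adjusted p of 0.051 to 0.096 in edgeR. KDM6B, KDM7A and KDM8 were not called, at 0.03, -0.18 and -0.24.

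Acetyltransferases changed by small amounts, with 2 of 10 higher and 6 lower and a median of -0.22 with TMM scaling. Without a scaling factor 4 were higher and 3 lower, with a median of -0.01, and on log2(TPM + 1) 4 were higher and 2 lower. KAT5, the catalytic subunit of the TIP60 complex, stood at 46.2, 45.9 and 43.3 CPM with DMSO and at 27.5, 24.2 and 24.9 CPM with NTX301. It fell 1.77-fold (log2 fold change -0.82 ± 0.06, adjusted p = 1.1e-07 by edgeR), and KAT8, which acetylates H4K16, fell 1.55-fold. KAT7, which acetylates H3K14 and works at replication origins, stood at 63.8, 62.7 and 63.0 CPM with DMSO and at 81.7, 82.0 and 80.0 CPM with NTX301. It rose 1.29-fold (adjusted p = 3.5e-06 by edgeR). KAT14 and KAT2A fell by 0.44 and 0.29, calls that were lost on log2(TPM + 1), that of KAT2A also without a scaling factor. KAT6B, at -0.17, lost its call without DMSO library 1 (adjusted p = 0.065 by edgeR) or NTX301 library 2 (adjusted p = 0.10) and turned to 0.03 without a scaling factor.

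EP300 and CREBBP, the paralogous coactivators that acetylate H3K27 at enhancers, moved apart by a little. EP300 stood at 159, 158 and 162 CPM with DMSO and at 131, 128 and 139 CPM with NTX301. It fell 1.20-fold (log2 fold change -0.27 ± 0.04, adjusted p = 8.5e-05 by edgeR), a call lost without a scaling factor and on log2(TPM + 1). CREBBP stood at 141, 142 and 139 CPM with DMSO and at 151, 145 and 165 CPM with NTX301. Its log2 fold change was 0.12 ± 0.05 (adjusted p = 0.034 by edgeR), with NTX301 library 3 well above the others. CREBBP was not called when any library but NTX301 library 2 was left out, with adjusted p of 0.060 to 0.15.

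Class I deacetylases had log2 fold changes between -0.37 and 0.14. HDAC1 and HDAC2 are the catalytic subunits of the NuRD, Sin3 and CoREST corepressors. HDAC1 stood at 228, 225 and 209 CPM with DMSO and at 173, 167 and 170.4 CPM with NTX301, a fall of 1.30-fold (adjusted p = 7.5e-06 by edgeR). HDAC2 stood at 116, 120 and 117 CPM with DMSO and at 129.7, 132 and 127 CPM with NTX301, a rise of 1.10-fold (adjusted p = 0.0044 by edgeR). HDAC3, the NCoR subunit, stood at 82.0, 83.6 and 77.7 CPM with DMSO and at 64.1, 69.5 and 63.2 CPM with NTX301. It fell 1.24-fold, a call lost without a scaling factor and on log2(TPM + 1). In all 3 genes the groups stood apart. HDAC8 was not called at -0.17 ± 0.08.

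Class II and IV deacetylases held the 2 most changed members of the whole set, and 6 of 7 fell, against 4 without a scaling factor or on log2(TPM + 1). HDAC9, a class IIa enzyme that binds MEF2 transcription factors and has little catalytic activity of its own, stood at 14.8, 13.5 and 10.3 CPM with DMSO and at 57.0, 56.8 and 62.0 CPM with NTX301. Every treated library was several times above every control, and HDAC9 rose 4.53-fold (log2 fold change 2.18 ± 0.09, adjusted p = 1.8e-09 by edgeR). On the TPM scale its mean went from 5.85 to 31.0, which moved it from place 75 to place 24 among the 87 members. HDAC5 (ENSG00000108840.16, chr17:44076746-44123702 in GENCODE 29), of the same class, stood at 77.3, 75.1 and 72.3 CPM with DMSO and at 25.3, 24.5 and 25.1 CPM with NTX301. It fell 3.00-fold (log2 fold change -1.59 ± 0.05, adjusted p = 1.2e-10 by edgeR). HDAC10, a polyamine deacetylase, fell 2.06-fold, HDAC6 1.66-fold and HDAC7 1.61-fold. HDAC11 fell by 0.31, a call lost without a scaling factor and on log2(TPM + 1). HDAC4, at -0.13 ± 0.05, turned to 0.08 in both. HDAC4 also lost its call without DMSO library 1 or 3 or without NTX301 library 2 or 3, with adjusted p of 0.056 to 0.16 in edgeR.

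Sirtuins, deacetylases that use NAD, were mostly not called. SIRT1, a nuclear enzyme, stood at 31.0, 27.8 and 31.5 CPM with DMSO and at 55.8, 55.8 and 54.9 CPM with NTX301. It rose 1.84-fold (log2 fold change 0.88 ± 0.05, adjusted p = 3e-08 by edgeR). SIRT2, a mainly cytoplasmic enzyme, stood at 68.2, 70.0 and 67.9 CPM with DMSO and at 35.8, 32.2 and 34.7 CPM with NTX301. It fell 2.01-fold (log2 fold change -1.01 ± 0.05, adjusted p = 4.6e-09 by edgeR), and its groups were as clearly apart as those of SIRT1. SIRT3 fell by 0.34, and SIRT4, SIRT5, SIRT6 and SIRT7 were not called, at log2 fold changes between -0.16 and 0.15.

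Ratios within pairs of paralogs do not depend on the scaling of a library, since both genes are read in it. For 20 pairs the log2 ratio of TPM, with 0.1 added to each, was compared between treatments by an exact two-sided permutation test. With 3 libraries against 3 the smallest p this test can give is 0.1, or 0.118 adjusted over the 20 pairs, so no pair could pass a threshold of 0.05. The ranges of the 2 treatments did not overlap in 17 pairs, all at that smallest p. In CPM, a different measure, 73.7% of single genes did not overlap, and no share over other gene pairs was computed. The ratio of EZH2 to EZH1 was 1.78, 1.77 and 1.76 with DMSO and 4.61, 4.81 and 4.32 with NTX301. Its log2 ratio thus went from 0.82 ± 0.01 to 2.18 ± 0.08 (SD, n = 3), through the rise of EZH2 and the fall of EZH1 given above.

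HDAC4 stood at 0.319, 0.319 and 0.360 of the level of HDAC5 with DMSO and at 0.954, 0.861 and 0.916 of it with NTX301. The pair thus went from unequal to nearly equal, and the log2 ratio moved by 1.45, the most of any pair. SETDB1 stood at 3.09, 3.24 and 3.14 times SETDB2 with DMSO and at 1.44, 1.39 and 1.44 times with NTX301. In 3 pairs the order itself was reversed between the group means. KDM3A to KDM3B went from -0.45 ± 0.03 to 0.34 ± 0.00 on the log2 scale, EP300 to CREBBP from 0.20 ± 0.05 to -0.19 ± 0.04, and KMT2C to KMT2D from 0.27 ± 0.10 to -0.22 ± 0.08. SUV39H2 to SUV39H1 rose from 0.08 ± 0.21 to 0.73 ± 0.07, and HDAC1 to HDAC2 went from 0.96 ± 0.07 to 0.45 ± 0.04. The ranges overlapped for EHMT1 to EHMT2 (p = 0.4), KDM2A to KDM2B (p = 1.0) and KDM5A to KDM5B (p = 0.2), each by the exact permutation test.

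**Figure D4:**
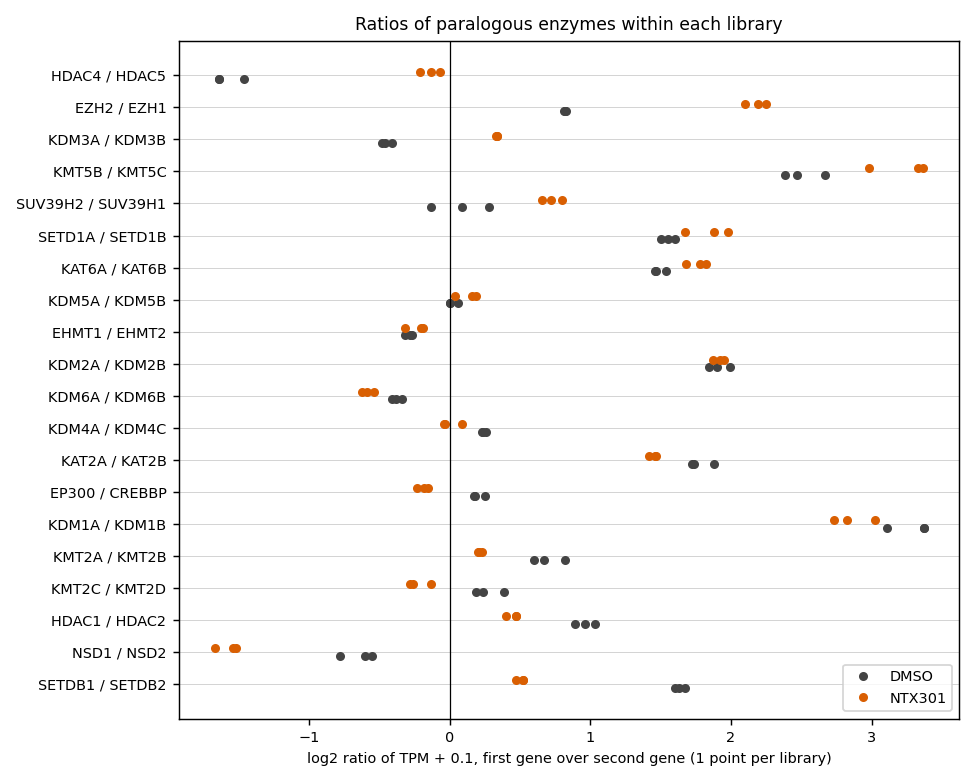
Log2 ratio of TPM between the paralogs of 20 pairs in each library, DMSO and NTX301 as separate points. The HDAC4 to HDAC5 and EZH2 to EZH1 ratios moved up by 1.45 and 1.36, SETDB1 to SETDB2 moved down by 1.13, and KDM2A to KDM2B stayed at a difference of 0.00.

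Subunits that work with these enzymes had medians near 0. For comparison, 35.4% of all tested genes were called higher and 35.1% lower. In the COMPASS complexes, which carry the H3K4 methyltransferases, 4 of 13 subunits rose and 8 fell, with a median log2 fold change of -0.15. MEN1, the adaptor of KMT2A and KMT2B, and PAGR1, a subunit with KMT2C and KMT2D, fell by 0.66 and 0.60. Among subunits of deacetylase corepressors, 7 of 29 rose and 13 fell, with a median of -0.11. TBL1X, the NCoR subunit that binds HDAC3 complexes to chromatin, stood at 108, 103 and 109 CPM with DMSO and at 36.1, 34.9 and 38.6 CPM with NTX301. It fell by 1.54 on the log2 scale (adjusted p = 1.9e-10 by edgeR), and the NuRD subunit MTA1 fell by 0.95. Among subunits of acetyltransferase complexes, 9 of 39 rose and 18 fell, with a median of -0.05, led by ING4 at -1.34 and TAF6L at -1.21. The shift of 0.21 in all genes without a scaling factor is larger in size than each of these 3 medians.

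**Figure D5:**
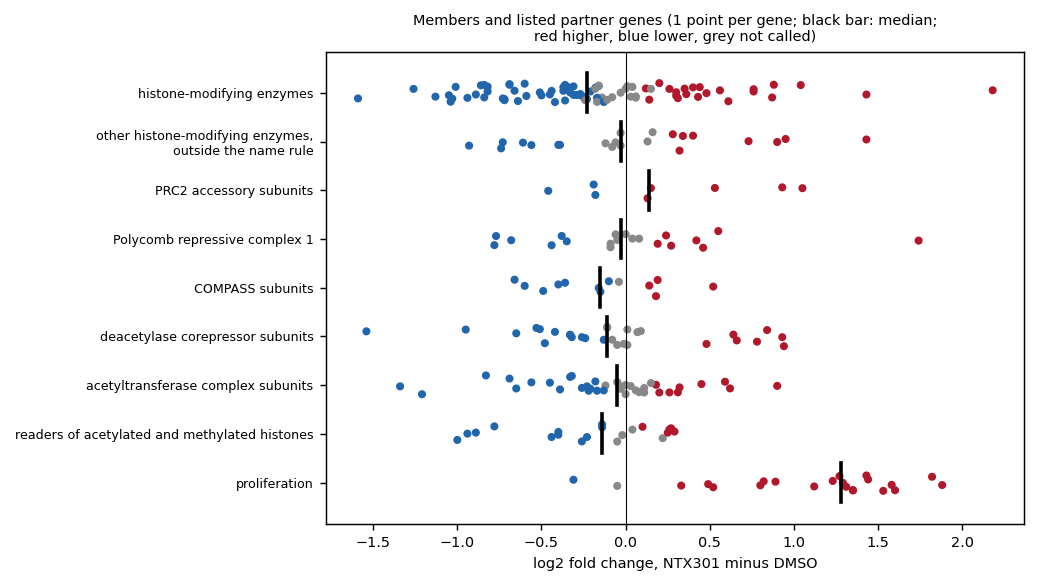
Log2 fold change, NTX301 minus DMSO (horizontal axis), of each gene in the histone-modifying enzymes and in 8 other lists, with a black bar at each list's median and color for the edgeR call. The proliferation list lies at a median of 1.28, while the medians of the PRC2 accessory, COMPASS, corepressor and acetyltransferase complex lists lie between -0.15 and 0.14.

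Transcript length differed between members that rose and members that fell. Abundance-weighted transcripts of the 22 risers had a median length of 2780 bases and those of the 46 that fell 4514 bases, against 2491 and 2789 bases for all genes called higher and lower. When all tested genes were split into 4 equal classes of length, the class of longest transcripts had a median log2 fold change of -0.08, and the 39 members in it had -0.24. In the next to shortest class, the 19 members had -0.31 and all genes 0.04. The 22 members in the next to longest class had -0.11, and all genes there 0.02. In the shortest class, the 3 members had -0.11 and all genes 0.02. The part of length in the members' changes was not tested.

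A change in that mean transcript length within a gene was called by limma for 3 of the 69 members with enough counts, PRMT2, KDM2A and SIRT5, where 7.88% of all genes fitted were called. PRMT2 gave the largest of these differences, with 1674, 1685 and 1706 bases with DMSO and 1542, 1524 and 1515 bases with NTX301 (adjusted p = 0.0051 by limma). Exons of 27 members lie opposite those of a tested neighbour, among them DOT1L with PLEKHJ1, EHMT2 with its antisense RNA, SUV39H2 with DCLRE1C, HDAC2 with HDAC2-AS2, KAT5 with RNASEH2C, KAT7 with FAM117A, NSD3 with DDHD2 and SIRT2 with NFKBIB. Exons of 8 members overlap a tested neighbour on their own strand, among them HDAC10 with MAPK12. No source used here gives the strand setting, and the reads of such neighbours may be mixed.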

How the data were processed

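Expression was measured by RNA sequencing of OVCAR5 cells, 3 DMSO and 3 NTX301 libraries grouped by the titles in the labels. The authors deposited gene tables in the layout of RSEM, per the file headers: expected counts (estimated reads per gene, not normalized), TPM (relative abundance per length) and mean transcript length. No source used here gives the aligner version, genome build, annotation release or strand setting. RSEM divides reads shared by similar genes by estimate.

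Each table held 62703 entries. The 47 copies of pseudoautosomal genes on chromosome Y were added to the X copies. Symbols came from a gene name table by stable identifier (62639 matched), and positions from GENCODE 29 (GRCh38). Expected counts were rounded and tested with edgeR 4.0.16 in R 4.3.3 (filterByExpr, 19029 genes; TMM, 0.9206 to 0.939 for DMSO and 1.068 to 1.083 for NTX301; glmQLFit and glmQLFTest; a term for treatment alone). Benjamini-Hochberg adjustment ran over all tested genes, with a threshold of 0.05. The biological coefficient of variation was 0.0478, and the pipeline was tested on simulated data. Chi-square per degree of freedom was 2.37 to 6.57 for library pairs within a group and 111 to 124 between groups, so no duplicate was assumed. Lengths of genes averaging at least 100 counts were compared with limma 3.58.1, a test added after the data were seen. Alternatives were DESeq2 1.42.0, other scalings, filters and units, a replicate block and left-out libraries.

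The genes, lists and tests were chosen with earlier results of these data known. Values in every library are given for the PRC2 core, EP300, CREBBP, HDAC1, HDAC2, HDAC3 and DOT1L, and in each role for the most changed member called higher and called lower. In other lists the 2 most changed called genes averaging at least 1 CPM are named, and further genes were named after their values were seen. A dose of 10 nM and methylation arrays named in the labels were not analysed here.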

Additional observations from a re-analysis of the deposited data

How the results depend on the processing

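Of the calls made with TMM, 21 of 22 higher and 28 of 46 lower held under all alternatives run, the exception among the higher ones being CREBBP. Sign changes are listed only for members called with TMM, in the alternative or in both. Without a scaling factor the members' median was -0.02. The sign turned for KMT2B (0.03), NSD2 (0.20), KDM1A (0.13), KDM6A (0.05), KAT6B (0.03), HDAC4 (0.08) and SIRT7 (0.18). Members called in neither fit could also turn, such as PRMT9 (0.07) and SIRT5 (0.04). On log2(TPM + 1) the median was 0.00, 28 members and 4318 of all tested genes were lower, and the sign turned for KMT2B (0.03), NSD2 (0.19), KMT5B (0.04), KDM1A (0.14), KDM2A (0.04), KDM2B (0.03), KDM6A (0.04), KAT6B (0.00), HDAC4 (0.08) and SIRT7 (0.17). The cause was not tested beyond the scale itself. Members called higher and lower numbered 22 and 43 with DESeq2, 21 and 47 without a filter, 21 to 22 and 44 to 47 with any library left out. Calls were gained by KDM1A without DMSO library 3 or NTX301 library 3 (-0.10 each), by HDAC8 without DMSO library 3 (-0.23), by PRMT9 without DMSO library 1 (-0.24), by SIRT5 without DMSO library 1 (-0.21) or NTX301 library 2 (-0.24), and without NTX301 library 3 by KDM7A (-0.34) and SIRT6 (0.20). Libraries with the same number deviated together by correlations of 0.08, -0.028 and 0.043, so the numbers were not taken to pair them. With the number as a replicate block 22 members were higher and 47 lower, and 6837 and 6749 of all tested genes. Not every library correlated best with its own number. With a pseudocount of 1 in place of 0.1, the EZH2 to EZH1 ratio moved by 1.28 and SETDB1 to SETDB2 by -1.0. Counts of SETD9, KDM4D and SIRT4 were low, so depth limits their precision.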

Other observations

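Enzymes with histone-modifying activity whose symbols fall outside the families above were also read. Of 24 such genes 22 were tested, and 8 rose and 7 fell, with a median log2 fold change of -0.03. Over all tested genes the shares were much alike, 35.4% higher and 35.1% lower. MECOM, a zinc finger protein with a PR/SET domain, stood at 8.76, 8.50 and 9.01 CPM with DMSO and at 25.9, 23.2 and 21.8 CPM with NTX301, and rose by 1.43 ± 0.08 on the log2 scale (adjusted p = 1.9e-08 by edgeR). HAT1, which acetylates newly made histone H4, stood at 57.5, 56.0 and 54.7 CPM with DMSO and at 108, 111 and 105 CPM with NTX301, and rose by 0.95 ± 0.04 (adjusted p = 1.9e-09 by edgeR). ASH1L, an H3K36 methyltransferase like NSD1, fell by 0.74, and CARM1, the arginine methyltransferase also known as PRMT4, by 0.56.

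Readers of acetylated and methylated histones were more often lower than higher, with 11 of 20 that fell and 5 that rose and a median of -0.14, smaller in size than the shift of 0.21 that all genes show without a scaling factor. MLLT3, a YEATS domain reader in complexes with DOT1L, stood at 22.9, 20.9 and 22.8 CPM with DMSO and at 10.5, 11.5 and 11.2 CPM with NTX301, and fell by 1.00 ± 0.07 on the log2 scale (adjusted p = 1.1e-07 by edgeR). L3MBTL1, which binds methylated H4K20, fell by 0.94, and the bromodomain protein BRD3 by 0.78. The heterochromatin proteins that bind methylated H3K9 had log2 fold changes of 0.26 for CBX1, 0.29 for CBX3 and -0.44 for CBX5. In TPM, which is not TMM scaled, CBX5 went in the other direction, from 35.1 ± 1.30 with DMSO to 38.5 ± 2.91 with NTX301 (SD, n = 3). Its mean transcript length was shorter with NTX301 (log2 difference -0.36, adjusted p = 0.011 by limma). The parts of scaling and length in this difference were not tested.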
